A study of Mus musculus with 12 samples.

Results

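The genes described here encode the tripartite motif (TRIM) proteins, a family named for a RING finger, B-boxes and a coiled coil. They were taken as the rows whose gene name begins with Trim and a digit and whose mean normalized count was at least 10. Of 14264 genes in the tables, 46 carried such a name and 41 met the minimum. The mean normalized count is the deposited average over libraries after scaling for depth, so the choice used overall abundance and no fold change. Just inside the minimum lay Trim66 at 13.3 and Trim46 at 21.2, and just outside it lay Trim34b at 8.06, Trim17 at 7.92, Trim58 at 7.62, Trim29 at 7.21 and Trim38 at 6.08.

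RNA came from mouse bone marrow-derived macrophages, cells grown from marrow that sense bacterial lipopolysaccharide (LPS) through TLR4. They carried a short hairpin against MOF (shMOF), the lysine acetyltransferase encoded by Kat8, or a control hairpin (shCTRL, labelled as wild type). The 4 groups of 3 libraries, 12 in all, were shMOF with LPS at 100 ng/ml for 3 h, shCTRL with the same LPS treatment, shMOF unstimulated and shCTRL unstimulated. All groups therefore carry a hairpin, and the labels name 1 hairpin type against MOF with no rescue, so the loss of MOF and any other effect of that hairpin cannot be told apart. Whether the 3 libraries of a group are separate animals or cultures is not in the labels, and p-values then measure only the spread between these samples, which may be technical.

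The files give, per gene, 1 mean over libraries and, for each LPS state, the log2 fold change, shMOF over shCTRL, and its standard error (SE). Values of single libraries and total counts are not given in them, and the precision of an effect is therefore known from its SE only. In bulk RNA, fewer cells of a type and less RNA per cell cannot be told apart. Kat8 had a log2 fold change of -2.31 (SE 0.13) at LPS 3 h and -2.25 (SE 0.10) unstimulated in the authors' deposited table. A marker is called measured where the deposited values include it. The smallest mean normalized count among them was 4.33, and no reason is given for the absence of other genes. Macrophage markers were abundant, with 9 of 9 measured and Lyz2 at a mean normalized count of 259735. Of these markers 7 were higher with shMOF at LPS 3 h and 9 unstimulated. Of the neutrophil markers 2 of 9 were measured, with S100a8 the higher at 21.0, and neither passed in either state. Of the B cell markers 1 of 5 was measured, Cd79b at 103.8, and it was higher with shMOF in both states. Of the T and NK cell markers 1 of 7 was measured, Cd4 at 166.9, which passed in neither state. Of the dendritic cell markers 1 of 5 was measured, Zbtb46 at 43.0, which was higher at LPS 3 h and did not pass unstimulated. All 6 fibroblast markers were measured, with means up to 667.4, and 4 of them were higher with shMOF at LPS 3 h against 3 unstimulated. All 3 progenitor markers were measured, with 2 lower at LPS 3 h and 3 lower unstimulated. The part of these cells in the values of the Trim genes was not tested. Of all genes with a mean of at least 10, 29.8% were higher with shMOF and 21.3% lower at LPS 3 h. Unstimulated, these shares were 23.2% and 19.4%.

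Most TRIM proteins act as ubiquitin ligases: the RING finger recruits a ubiquitin-loaded E2 enzyme, and a variable C-terminal region, most often a PRY-SPRY domain, binds the substrate. In macrophages the family is known for tuning the sensing of foreign RNA and DNA, NF-kB signalling and restriction of viruses, and several members are induced by interferon. Not every member is a ligase by this route, since Trim14, Trim16, Trim44 and Trim66 are known as family members without a RING finger.

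RefSeq promoter windows (GRCm38.p6, 300 bases round a start) were found for 32 of the 41 genes. The interferon response element core, searched as GAAA, any 2 bases and GAAA again on both strands, occurred in 9 of these 32 genes (28.1%). Among all genes with a mean of at least 10 and a promoter window, 375 of 9346 had it (4.01%). Both counts are by gene, and the copied stretches described below were not collapsed in them. Of the 9 genes, 6 lie in the chromosome 7 block (Trim5, Trim12a, Trim12c, Trim30a, Trim30d and Trim34a), and the others are Trim2, Trim21 and Trim26. All 9 genes of the block that met the minimum mean had a window, and those of Trim30b, Trim30c and Trim6 held no match. The sequences below show the match in 8 of the 9 genes, of which Trim5 was the one not called higher with shMOF at LPS 3 h. Trim2, which was called higher there, is not printed. They read 5′ to 3′ on the strand of the gene, with the match in capitals. For the first 4 they are the 100 bases before the RefSeq start, on the minus strand at chr7:104288107-104288206 for Trim5, chr7:104353350-104353449 for Trim12c, chr7:104465194-104465293 for Trim30a and chr7:104507850-104507949 for Trim30d.
Trim5: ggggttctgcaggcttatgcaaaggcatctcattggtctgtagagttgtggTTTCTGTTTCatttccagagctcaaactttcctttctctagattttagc
Trim12c: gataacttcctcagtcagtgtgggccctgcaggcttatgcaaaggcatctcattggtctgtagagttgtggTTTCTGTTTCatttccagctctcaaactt
Trim30a: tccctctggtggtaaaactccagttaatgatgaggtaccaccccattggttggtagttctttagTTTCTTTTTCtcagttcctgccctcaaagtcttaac
Trim30d: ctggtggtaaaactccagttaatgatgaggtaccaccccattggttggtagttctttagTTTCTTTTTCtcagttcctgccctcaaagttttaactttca

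For the other genes 30 bases round the match are shown, from base 1 of the RefSeq transcript for Trim12a (chr7:104315466-104315495, minus strand) and Trim34a (chr7:104244457-104244486, plus strand). The Trim21 stretch starts at base 7 of the transcript (chr7:102565447-102565476, minus strand), and the Trim26 stretch runs from -167 to -138 relative to the start (chr17:36836979-36837008, plus strand).
Trim12a: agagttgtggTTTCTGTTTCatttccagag
Trim34a: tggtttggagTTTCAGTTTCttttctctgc
Trim21: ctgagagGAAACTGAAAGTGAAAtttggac
Trim26: cttccgaTTTCACTTTCCTTTTCtcgggcc

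Several of these matches are copies of the same stretch and do not count as separate occurrences. The windows of Trim5 and Trim12a share an identical run of 241 bases, those of Trim30a and Trim30d one of 118 bases, and those of Trim5 and Trim12c one of 71 bases. Trim34a shared no run longer than 10 bases with any of the other 5 windows. In Trim21 and Trim26 the capitals hold a pair of overlapping matches. An NF-kB core, GGGA, any 4 bases and CC, was in 8 of 32 Trim genes (25%), against 30.5% of all genes with a window and a mean of at least 10. An AP-1 core, TGANTCA, was in 4 of 32 (12.5%), against 6.48%. Matches of different motifs did not overlap, and a match is a description of letters, not of binding.

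The family spanned a wide range of abundance. Mean normalized counts ran from 13.3 to 17521 with a median of 695.5, against a median of 570.6 for all genes with a mean of at least 10. Levels between genes were compared per kilobase (kb) of merged exon. Trim25, a ligase known for ubiquitinating the RNA sensor RIG-I, was highest at 3045 normalized counts per kb. Trim30a, which in mouse promotes loss of the TAK1-binding proteins TAB2 and TAB3, followed at 2459 counts per kb. Next came Trim30c at 1614, the cytosolic antibody receptor gene Trim21 at 1274 and Trim30d at 1039 counts per kb. Trim66 at 1.31, Trim7 at 5.42 and Trim46 at 5.58 counts per kb were the lowest. These are means with no spread over libraries, so neighbours in the order cannot be separated.

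**Figure D1:**
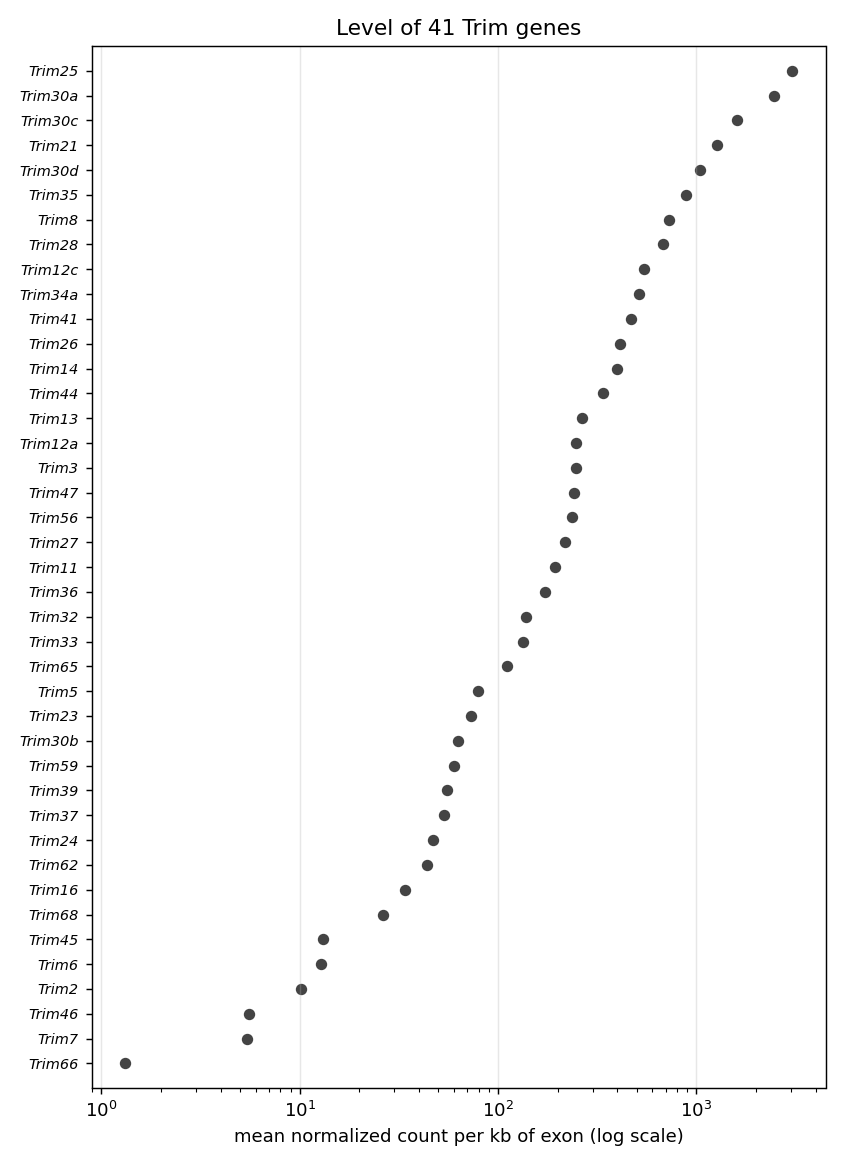
Mean normalized count per kb of merged exon (log axis) for the 41 Trim genes, 1 point per gene, ordered by level. Trim25 stands at 3045 and Trim66 at 1.31 counts per kb; no error is available for these means.

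At LPS 3 h, 27 of the 41 genes passed an adjusted p of 0.05 between shMOF and shCTRL, 17 higher and 10 lower. Of all 12994 genes with a mean of at least 10, 51.1% passed, 29.8% higher and 21.3% lower. In unstimulated cells 16 of 41 passed, 9 higher and 7 lower, where 42.6% of all genes passed, 23.2% higher and 19.4% lower. The unstimulated share of the family, 39.0%, lay near that background, and the share at LPS 3 h, 65.9%, lay above it; the difference from the background was not tested. The median log2 fold change of the 41 genes was 0.06 at LPS 3 h and 0.07 unstimulated, against 0.03 for all genes in both states. Effects were small: 32 of 41 genes at LPS 3 h and 39 of 41 unstimulated had an absolute log2 change under 0.5, and 0 and 1 of them reached 1. With a null distribution estimated from all genes, 1 call was kept at LPS 3 h (Trim36) and 2 unstimulated (Trim44 and Trim59). That null takes its spread from all genes, called ones included. A widespread effect of the hairpin would widen it, so it cannot tell such an effect from noise.

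**Figure D2:**
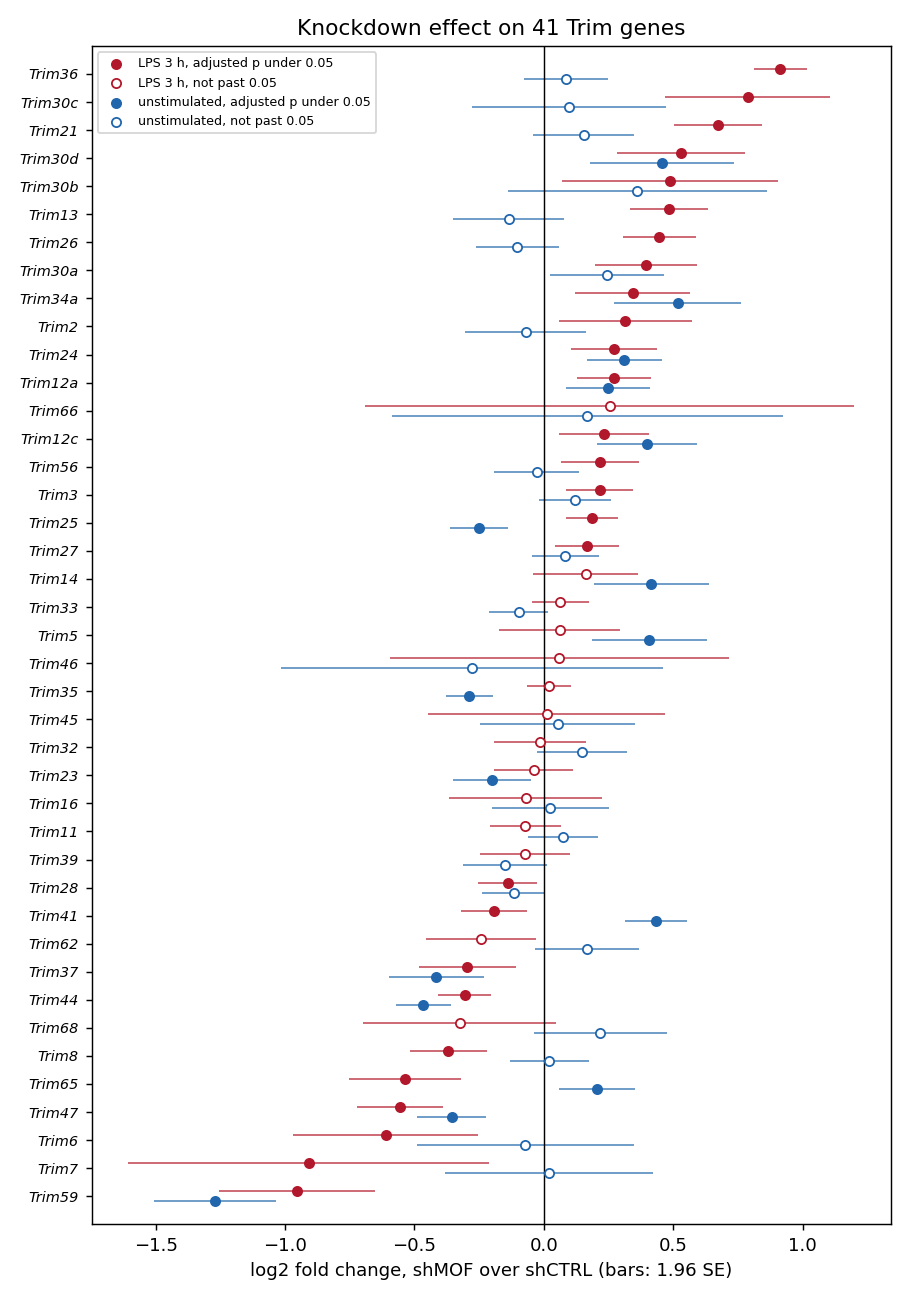
Log2 fold change, shMOF over shCTRL, for each of the 41 Trim genes at LPS 3 h (red, upper point) and in unstimulated cells (blue, lower point), with bars of the 95% interval; filled points have an adjusted p under 0.05. Trim36 is highest at LPS 3 h with 0.91, and Trim59 is lowest in both states with -0.95 at LPS 3 h and -1.27 unstimulated.

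Members listed as having a PRY-SPRY domain, 24 of the 41, had 11 higher and 5 lower at LPS 3 h, against 29.8% and 21.3% of all genes. Unstimulated, 8 were higher and 3 lower, against 23.2% and 19.4% of all genes. Their medians were 0.11 at LPS 3 h and 0.16 unstimulated. All 9 genes counted for the chromosome 7 block below are in this list. They gave 7 of its 11 higher calls at LPS 3 h and 5 of its 8 unstimulated. The counts of the list and of the block are therefore not separate results. The list was not checked against protein sequences. By state, 5 genes were higher in both (Trim12a, Trim12c, Trim24, Trim30d and Trim34a) and 4 were lower in both (Trim37, Trim44, Trim47 and Trim59). A further 11 were higher at LPS 3 h with no call unstimulated, and 4 were lower at LPS 3 h with none unstimulated. Calls of opposite sign were made for 3 genes, Trim25, Trim41 and Trim65. In 10 genes neither comparison passed, and 24 of 41 genes had the same sign in both. These counts across states were not made for all genes, so they have no background beside them. A call in a single state is not a difference between states. Of the genes called at LPS 3 h alone, only Trim13, Trim21, Trim26, Trim30c, Trim36 and Trim8 passed the test of the difference given below.

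The chromosome 7 block, chr7:104218793-104507849 in GRCm38, holds the mouse relatives of TRIM5, a factor known in primates for blocking retroviral capsids. Trim34b also lies in the block but is under the minimum mean and is not counted here. Of the 9 genes that met the minimum, 7 were higher with shMOF at LPS 3 h and 1 was lower. The shares of all genes were 29.8% and 21.3%. Unstimulated, 5 of 9 were higher and 0 lower, against 23.2% and 19.4% of all genes. The median log2 fold change was 0.34 at LPS 3 h and 0.36 unstimulated, against 0.03 for all genes in both states. Trim30c rose by 0.79 (SE 0.16, adjusted p = 5.78e-06) at LPS 3 h and had 0.10 (SE 0.19, adjusted p = 0.735) unstimulated in the authors' deposited table. Trim30d rose in both, by 0.53 (SE 0.13) at LPS 3 h and 0.46 (SE 0.14) unstimulated in the authors' deposited table. Trim30a rose by 0.40 (SE 0.10) at LPS 3 h and had 0.25 (SE 0.11, adjusted p = 0.0705) unstimulated in the authors' deposited table. All 4 Trim30 genes passed at LPS 3 h, and Trim30d also unstimulated. Trim30b had the widest error of them, with 0.49 (SE 0.21, adjusted p = 0.0468) at LPS 3 h and 0.36 (SE 0.26) unstimulated in the authors' deposited table. Its LPS 3 h call was lost when fold changes were centred on their median.

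The block also holds Trim34a, Trim12a, Trim12c, Trim5 and Trim6. Trim34a rose by 0.34 (SE 0.11) at LPS 3 h and 0.52 (SE 0.13) unstimulated in the authors' deposited table, the largest unstimulated rise of the 41 genes. Trim12a rose by 0.27 (SE 0.07) at LPS 3 h and 0.25 (SE 0.08) unstimulated in the authors' deposited table. Trim12c rose by 0.23 (SE 0.09) at LPS 3 h and 0.40 (SE 0.10) unstimulated in the authors' deposited table. These 3 genes and Trim30d are the ones of the block that passed in both states. Trim5 had 0.06 (SE 0.12, adjusted p = 0.706) at LPS 3 h and rose by 0.41 (SE 0.11, adjusted p = 0.00137) unstimulated in the authors' deposited table. Trim6, known in human cells for building free ubiquitin chains that activate the kinase IKKε, went the other way. It fell, with -0.61 (SE 0.18, adjusted p = 0.00245), at LPS 3 h and had -0.07 (SE 0.21, adjusted p = 0.835) unstimulated in the authors' deposited table.

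**Figure D3:**
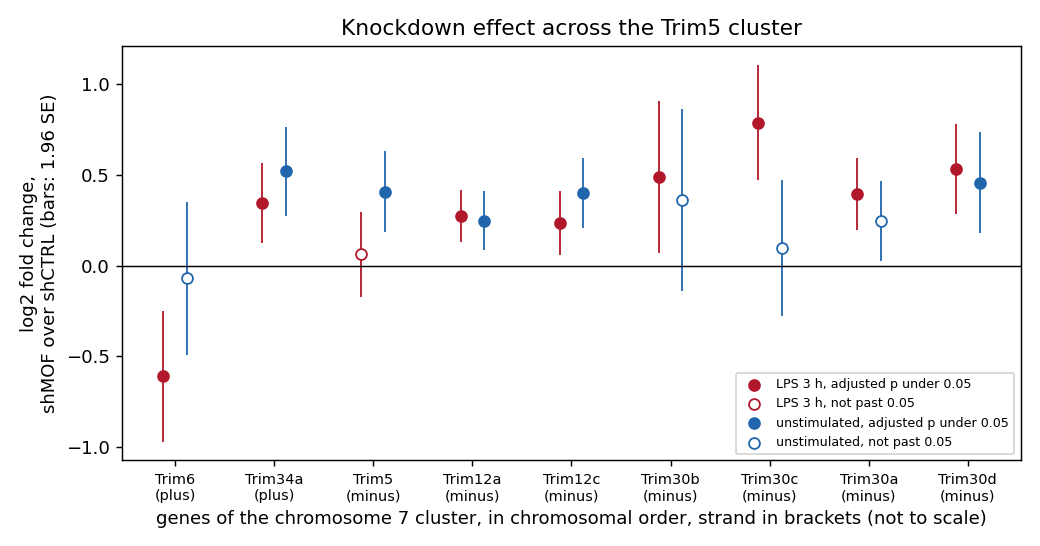
Log2 fold change, shMOF over shCTRL, for 9 genes of the chromosome 7 block in chromosomal order at LPS 3 h (red, left) and unstimulated (blue, right). Bars give the 95% interval, and filled points have an adjusted p under 0.05. Trim34b, under the minimum mean, is not drawn. Trim6, at 1 end, is the gene that fell at LPS 3 h (-0.61), while Trim30c stands highest there (0.79).

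Reads of close copies can be split by counting. Exact stretches of 100 bases, the read length, were compared between the transcripts of each Trim gene and those of all other annotated genes. Such stretches made up 21.0% of Trim34a, all of it shared with Trim34b, 11.7% of Trim5 and 8.05% of Trim12c. They made up 4.74% of Trim47, all of it shared with Trim65, 4.57% of Trim30d and 4.41% of Trim30a. The others of the 41 genes had smaller shares or none. In 27 of the 41 genes no stretch was shared, Trim30b, Trim30c and Trim6 among them. Exons of 11 of the 41 genes overlap exons of another gene, 6 of them with a gene on the opposite strand. For Trim34a an antisense gene covers 23.5% of the exon length. How the authors' counting assigned shared reads is not given in the sources used here, so the values of Trim34a, Trim5 and Trim12c carry that uncertainty beside their SE. Trim34b, which shares with Trim34a, had a mean normalized count of 8.06. The widest SE of the block are those of Trim30b, Trim6 and Trim30c. Interferon-stimulated genes outside the family, a list of 30, had 18 higher and 0 lower at LPS 3 h, against 29.8% and 21.3% of all genes. Unstimulated, 16 were higher and 1 lower, against 23.2% and 19.4% of all genes. Their medians were 0.26 at LPS 3 h and 0.27 unstimulated, against 0.03 for all genes in both states. In the authors' deposited table the antiviral GTPase gene Mx2 had 0.88 (SE 0.10) at LPS 3 h and 0.35 (SE 0.12) unstimulated. The gene lower in unstimulated cells was the chemokine Cxcl10, with 0.72 (SE 0.21) at LPS 3 h and -1.65 (SE 0.25) unstimulated in the authors' deposited table.

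Read by promoter, 8 of the 9 Trim genes with the interferon motif were higher at LPS 3 h and 0 lower, and 5 were higher and 0 lower unstimulated. Of these 9 genes 6 lie in the chromosome 7 block, and several share a copied stretch. They are therefore not all separate occurrences, which limits the contrasts that follow. Of the 23 Trim genes with a window and no such motif, 7 were higher and 8 lower at LPS 3 h, and 2 higher and 6 lower unstimulated. Among all genes the motif went with a smaller contrast. At LPS 3 h 37.1% of 375 genes with it were higher and 17.6% lower, against 31.2% and 22.9% of 8974 rows of genes without it. Unstimulated, 29.9% of genes with it were higher and 17.6% lower, against 24.2% and 21.1% without it.

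Regulators of nucleic acid sensing, 10 of them with a mean of at least 10, had 6 higher and 2 lower at LPS 3 h. The shares of all genes were 29.8% and 21.3%. Unstimulated, 2 were higher and 1 lower, against 23.2% and 19.4% of all genes. Trim6, lower at LPS 3 h, is in this list and is also counted in the chromosome 7 block. Trim21 rose by 0.67 (SE 0.09, adjusted p = 9.89e-14) at LPS 3 h and had 0.15 (SE 0.10, adjusted p = 0.228) unstimulated in the authors' deposited table. Trim26, reported to act on the interferon factor IRF3, rose by 0.45 (SE 0.07) at LPS 3 h and had -0.10 (SE 0.08) unstimulated in the authors' deposited table. Trim13, a ligase anchored in the endoplasmic reticulum, rose by 0.48 (SE 0.08) at LPS 3 h and had -0.14 (SE 0.11) unstimulated in the authors' deposited table. Trim56, linked to signalling from the DNA sensor adaptor STING, rose by 0.22 (SE 0.08) at LPS 3 h and had -0.03 (SE 0.08) unstimulated in the authors' deposited table. Trim27, a transcriptional repressor also known as RET finger protein, rose by 0.17 (SE 0.06) at LPS 3 h, a call lost after centring, and had 0.08 (SE 0.07) unstimulated in the authors' deposited table.

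The ligases of the RNA sensors had calls of opposite sign in the 2 states. Trim25 rose slightly, by 0.19 (SE 0.05, adjusted p = 0.00104), at LPS 3 h and fell, with -0.25 (SE 0.06, adjusted p = 8.25e-05), unstimulated in the authors' deposited table. Trim65, which activates the sensor MDA5 through ubiquitination, had the reverse pattern. It fell, with -0.54 (SE 0.11, adjusted p = 5.19e-06), at LPS 3 h and rose by 0.20 (SE 0.07, adjusted p = 0.0191) unstimulated in the authors' deposited table, and the unstimulated call was lost after centring. Trim14, an adaptor at the mitochondrial protein MAVS, had 0.16 (SE 0.10, adjusted p = 0.199) at LPS 3 h and rose by 0.42 (SE 0.11, adjusted p = 0.00104) unstimulated in the authors' deposited table. Exons of Nans on the opposite strand cover 31.3% of the exon length of Trim14, and whether counting used strand is not given in the sources used here. Nans fell in both states, with -0.19 (SE 0.07) at LPS 3 h and -0.27 (SE 0.07) unstimulated in the authors' deposited table. Trim32, which has NHL repeats and is linked to STING, had -0.01 (SE 0.09) at LPS 3 h and 0.15 (SE 0.09) unstimulated in the authors' deposited table, and neither passed.

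Members that act on NF-kB signalling, 6 of them with a mean of at least 10, had 3 higher and 2 lower at LPS 3 h. The shares of all genes were 29.8% and 21.3%. Unstimulated, 0 were higher and 2 lower, against 23.2% and 19.4% of all genes. The 3 higher at LPS 3 h were Trim13, Trim27 and Trim30a. Trim13 and Trim27 are also among the sensing regulators counted above, and Trim30a lies in the chromosome 7 block. These calls are therefore not separate from the counts given above. Trim8, which in human cells builds ubiquitin chains on the kinase TAK1, fell at LPS 3 h, with -0.37 (SE 0.08, adjusted p = 4.85e-06), and had 0.02 (SE 0.08) unstimulated in the authors' deposited table. Trim23, a ligase of the IKK subunit NEMO that also carries an ARF-type GTPase domain, had -0.04 (SE 0.08) at LPS 3 h and fell, with -0.20 (SE 0.08, adjusted p = 0.0253), unstimulated in the authors' deposited table. Trim59, a membrane-anchored member, had the largest change of the family. It fell to 0.414-fold of the shCTRL level unstimulated, at -1.27 on the log2 scale (SE 0.12, adjusted p = 2.62e-24), and at LPS 3 h had -0.95 (SE 0.15, adjusted p = 4.02e-09), by the authors' deposited table. Partners and substrates in the same pathways, a list of 24 genes, had 11 higher and 4 lower at LPS 3 h and 7 higher and 4 lower unstimulated. The all-gene shares for these counts are those given above. Tab2, whose protein Trim30a acts on, rose by 0.76 (SE 0.05) at LPS 3 h and 0.37 (SE 0.06) unstimulated, by the authors' deposited table. Tab3, whose protein it also acts on, had 0.11 (SE 0.08, adjusted p = 0.260) at LPS 3 h and fell, with -0.19 (SE 0.08, adjusted p = 0.0466), unstimulated in the authors' deposited table. Tab1, another TAK1-binding protein gene, had -0.97 (SE 0.12) at LPS 3 h and 0.09 (SE 0.08) unstimulated in the authors' deposited table. The MDA5 gene Ifih1 rose by 0.80 (SE 0.08) at LPS 3 h and 0.37 (SE 0.09) unstimulated in the authors' deposited table. Myd88, the adaptor of TLR4 among other receptors, had 0.56 (SE 0.08) at LPS 3 h and 0.70 (SE 0.09) unstimulated in the authors' deposited table.

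The PHD-bromodomain members, which read chromatin and regulate transcription, had small values. Trim24, a co-regulator of nuclear receptors, rose by 0.27 (SE 0.09) at LPS 3 h and 0.31 (SE 0.07) unstimulated in the authors' deposited table. Trim28, the corepressor KAP1 of KRAB zinc finger proteins, fell slightly at LPS 3 h, with -0.14 (SE 0.06, adjusted p = 0.0345), and had -0.12 (SE 0.06, adjusted p = 0.128) unstimulated in the authors' deposited table. The unstimulated value of Trim28 passed once fold changes were centred. Trim33, which acts on SMAD4, had 0.06 at LPS 3 h with a 95% interval of -0.05 to 0.17, and -0.10 unstimulated with an interval of -0.21 to 0.02 in the authors' deposited table. Trim66 was too low for a narrow estimate, at 0.25 (SE 0.48) at LPS 3 h and 0.17 (SE 0.39) unstimulated in the authors' deposited table. Of 13 partners of Trim28 in gene silencing, 4 were higher and 5 lower at LPS 3 h, against 29.8% and 21.3% of all genes. Unstimulated, 4 were higher and 4 lower, against 23.2% and 19.4% of all genes. Among them the HP1 gene Cbx5 had -0.73 (SE 0.09) at LPS 3 h and -1.74 (SE 0.09) unstimulated in the authors' deposited table. The HP1 gene Cbx1 rose in both states, by 0.46 (SE 0.05) at LPS 3 h and 0.35 (SE 0.05) unstimulated in the authors' deposited table. Daxx, a histone chaperone gene, also rose in both, by 0.85 (SE 0.10) at LPS 3 h and 0.32 (SE 0.11) unstimulated in the authors' deposited table.

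Members tied to microtubules and centrosomes did not share a direction. Trim36, a microtubule-binding ligase, had the largest rise of the family at LPS 3 h, by 0.91 (SE 0.05, adjusted p = 1.84e-68), and had 0.09 (SE 0.08, adjusted p = 0.447) unstimulated in the authors' deposited table. Trim37, which restrains centriole assembly and carries a MATH domain, fell in both states, with -0.30 (SE 0.10) at LPS 3 h and -0.41 (SE 0.09) unstimulated in the authors' deposited table. Trim46, known for organising microtubules in the axon, had wide errors, with 0.06 (SE 0.33) at LPS 3 h and -0.28 (SE 0.38) unstimulated in the authors' deposited table.

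Among the remaining members, Trim44 and Trim47 fell in both states. Trim44, which has a ubiquitin-protease type zinc finger in place of a RING, had -0.31 (SE 0.05) at LPS 3 h and -0.47 (SE 0.05) unstimulated in the authors' deposited table. Trim47 had -0.56 (SE 0.08) at LPS 3 h and -0.36 (SE 0.07) unstimulated, by the authors' deposited table. Exons of Trim47 and Trim65 overlap over 225 bases on the same strand of chromosome 11, and the pair had like values at LPS 3 h (-0.56 for Trim47 and -0.54 for Trim65) and unlike ones unstimulated (-0.36 and 0.20) in the authors' deposited table. Stretches of read length shared by the pair made up 4.74% of Trim47 and 2.2% of Trim65, and how such reads were counted is not given in the sources used here. Trim35 had 0.02 (SE 0.04) at LPS 3 h and fell, with -0.29 (SE 0.05, adjusted p = 4.58e-09), unstimulated in the authors' deposited table. Trim41 fell, with -0.19 (SE 0.06, adjusted p = 0.00708), at LPS 3 h and rose by 0.43 (SE 0.06, adjusted p = 1.97e-11) unstimulated in the authors' deposited table. Trim7, a partner of the glycogen primer glycogenin, fell at LPS 3 h with a wide error, -0.91 (SE 0.36, adjusted p = 0.0244), and had 0.02 (SE 0.21) unstimulated in the authors' deposited table. The NHL-repeat members known from neurons, Trim3 and Trim2, were higher at LPS 3 h; the authors' deposited table gives 0.22 (SE 0.07) for Trim3 and 0.31 (SE 0.13) for Trim2. The Trim2 call was lost after centring. Unstimulated, Trim3 had 0.12 (SE 0.07) and Trim2 -0.07 (SE 0.12), by the authors' deposited table, and neither passed.

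Neither comparison passed for Trim11, Trim16, Trim32, Trim33, Trim39, Trim45, Trim46, Trim62, Trim66 and Trim68. For Trim11 the 95% interval was -0.21 to 0.07 at LPS 3 h and -0.06 to 0.21 unstimulated in the authors' deposited table. For Trim16, a galectin-binding member of the lysosomal damage response, it was -0.36 to 0.23 at LPS 3 h and -0.20 to 0.25 unstimulated in the authors' deposited table. Trim45, with a filamin domain, had an interval of -0.45 to 0.47 at LPS 3 h and of -0.25 to 0.35 unstimulated in the authors' deposited table. All these intervals include 0. Trim39 had an interval of -0.24 to 0.10 at LPS 3 h and -0.31 to 0.01 unstimulated in the authors' deposited table. The interval of Trim68 was -0.70 to 0.05 at LPS 3 h and -0.04 to 0.48 unstimulated in the authors' deposited table. Trim62 was close to the threshold at LPS 3 h, at -0.24 (SE 0.11, adjusted p = 0.0523) by the authors' deposited table, and passed when adjustment ran over genes with a mean of at least 10.

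The difference of the knockdown effect, LPS 3 h minus unstimulated, was tested from both deposited effects and passed for 11 of 41 genes, 7 with a higher effect at LPS 3 h and 4 with a lower one. Of all 12994 genes 30.6% passed, 18.2% higher and 12.4% lower, so the share of the family, 26.8%, lay near the background. Of the differences that passed, that of Trim36 was the largest, at 0.83 (SE 0.10, adjusted p = 2.06e-15). It was 0.69 (SE 0.25, adjusted p = 0.0234) for Trim30c, 0.62 (SE 0.13) for Trim13, 0.55 (SE 0.11) for Trim26 and 0.52 (SE 0.13) for Trim21. Trim25 had a difference of 0.44 (SE 0.08) and Trim35 one of 0.31 (SE 0.06). Lower effects at LPS 3 h were found for Trim65, at -0.74 (SE 0.13), Trim41, at -0.63 (SE 0.09, adjusted p = 5.60e-11), Trim62, at -0.41 (SE 0.15), and Trim8, at -0.39 (SE 0.11). Trim7 had the lowest estimate, -0.93, but with an SE of 0.41 it did not pass (adjusted p = 0.0720). Within the chromosome 7 block Trim30c alone of the 9 genes passed this test; the difference for Trim5 was -0.35 (SE 0.16, adjusted p = 0.0978) and for Trim6 -0.54 (SE 0.28, adjusted p = 0.137). If the errors of both effects were correlated at 0.3, 18 genes would pass, and Trim5 and Trim7 would be among them. With a correlation of -0.3, 9 genes would pass, and Trim30c (adjusted p = 0.0614) and Trim62 (adjusted p = 0.0620) would not.

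**Figure D4:**
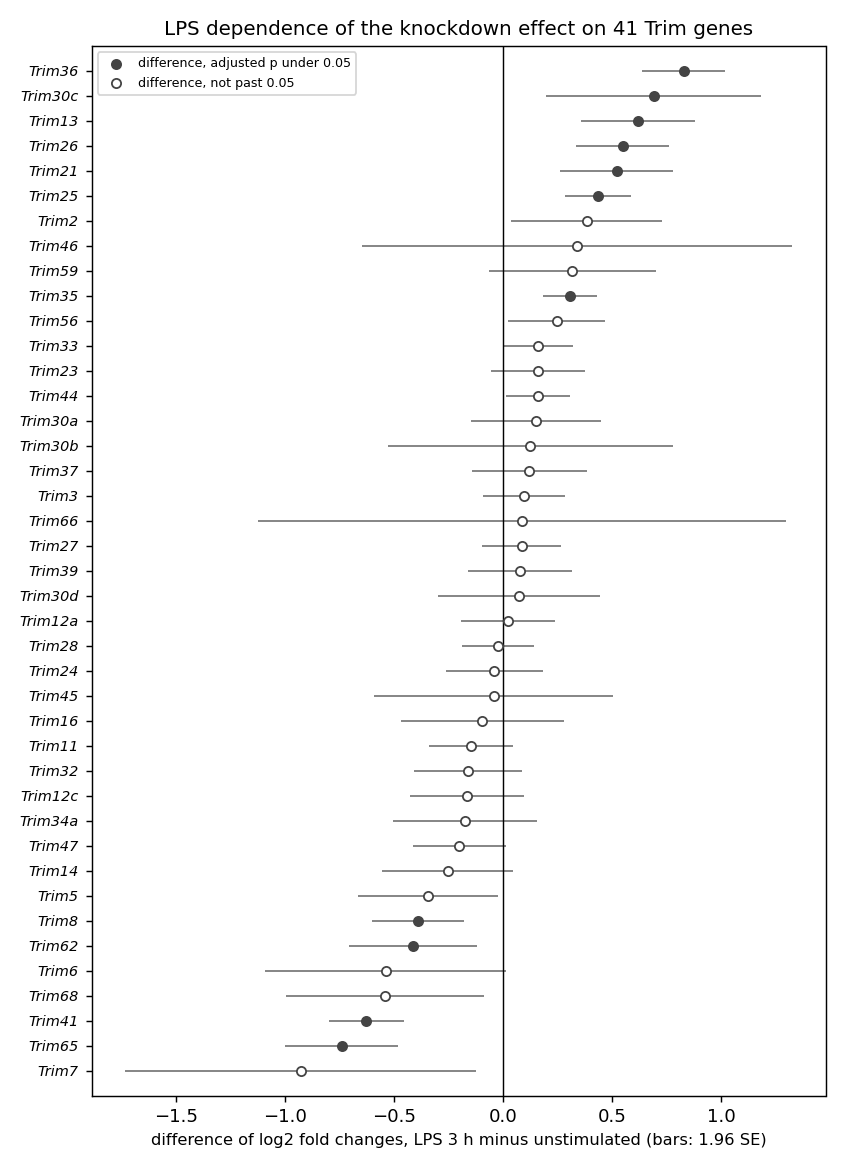
Difference of the log2 fold changes (shMOF over shCTRL), LPS 3 h minus unstimulated, for the 41 Trim genes, with bars of the 95% interval and filled points for an adjusted p under 0.05. The filled points at the upper end run from 0.31 (Trim35) to 0.83 (Trim36), and those at the lower end from -0.39 (Trim8) to -0.74 (Trim65).

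RING ligases take ubiquitin from E2 enzymes, which are loaded by E1 enzymes. Of 16 E1 and E2 genes measured, 9 were higher and 0 lower at LPS 3 h, against 29.8% and 21.3% of all genes. Unstimulated, 4 were higher and 2 lower, against 23.2% and 19.4% of all genes. The list is not limited to enzymes that supply ubiquitin. It includes Uba7, with 0.41 (SE 0.15), and Ube2l6, with 0.27 (SE 0.09), both among those higher unstimulated. The median log2 fold change of the 16 genes was 0.25 at LPS 3 h and 0.05 unstimulated, against 0.03 for all genes in both states. The difference between states passed for 10 of the 16 genes, all 10 with a higher effect at LPS 3 h. Of all genes, 18.2% passed this test with a higher effect at LPS 3 h and 12.4% with a lower one. Ube2w, an E2 that modifies the start of proteins, rose by 0.49 (SE 0.06) at LPS 3 h and had 0.12 (SE 0.06) unstimulated in the authors' deposited table. Ube2d3, of the E2 family used most widely by RING ligases, rose by 0.34 (SE 0.04) at LPS 3 h and had 0.01 (SE 0.04) unstimulated in the authors' deposited table. Ube2n, which builds the chains used in TAK1 signalling, rose by 0.31 (SE 0.04) at LPS 3 h and had 0.09 (SE 0.05) unstimulated in the authors' deposited table. Ube2e2, another E2, had -0.06 (SE 0.11) at LPS 3 h and -0.41 (SE 0.13) unstimulated in the authors' deposited table.

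Of 4 TRIM proteins with other gene names, 3 were measured. Mid1, a microtubule-associated ligase, rose by 0.57 (SE 0.15) at LPS 3 h and 0.65 (SE 0.16) unstimulated in the authors' deposited table. Mefv, which encodes the inflammasome protein pyrin, rose by 0.48 (SE 0.10) at LPS 3 h and had 0.08 (SE 0.16) unstimulated in the authors' deposited table. Pml, the organiser of PML nuclear bodies, passed in neither state, with 0.20 (SE 0.13) at LPS 3 h and 0.18 (SE 0.14) unstimulated in the authors' deposited table.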

How the data were processed

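RNA was sequenced from 12 libraries, 3 in each of 4 groups, as stranded paired-end mRNA libraries per the labels' protocol. DESeq2 (version not stated) and the build mm10 are from the submitters' processing notes. Neither aligner nor counter nor annotation is given in the sources used here. Per the file headers, the authors deposited for each LPS state a mean normalized count (a signal averaged over libraries), a log2 fold change with its SE, a Wald statistic (a score), a p-value and an adjusted p. The statistic equalled fold change over SE to within 1.53e-13. The authors' values were taken unaltered, and calls needed an adjusted p under 0.05 without a fold limit. Depth per library is unknown; the median SE of the 41 genes was 0.0895 at LPS 3 h and 0.0936 unstimulated.

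The difference between states was tested by subtracting one log2 fold change from the other, dividing by the combined SE (the square root of the sum of squares) and reading a normal p, two-sided, adjusted by Benjamini-Hochberg across the 12994 genes with a mean of at least 10; it takes the errors as uncorrelated. Intervals are normal 95% intervals from the SE. Positions, merged exon lengths and transcripts are from GENCODE M21 (GRCm38, which is mm10), matched by gene ID for 41 of 41 genes; promoters are from RefSeq. Members, lists, motifs, tests and the rule for named genes (per comparison, 10 members with the smallest p in each direction, and all of the chromosome 7 block) were chosen with earlier results of these data known, and lists are described without a test. Other members are named so that all are accounted for. Alternatives were other thresholds, minimum folds, nulls, centring, adjustment sets and error correlations. Python 3.11.15, numpy 2.4.6, scipy 1.17.1 and pandas 2.3.3 were used.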

Additional observations from a re-analysis of the deposited data

Results flagged for a closer look

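The knockdown effect on 11 Trim genes differed between LPS 3 h and unstimulated cells by the test of the difference itself, adjusted over the 12994 genes with a mean of at least 10. This share of the family, 26.8%, lay near that of all 12994 genes, 30.6%. The knockdown effect was higher at LPS 3 h for Trim36 (difference 0.83), Trim30c (0.69), Trim13 (0.62), Trim26 (0.55), Trim21 (0.52), Trim25 (0.44) and Trim35 (0.31). It was lower at LPS 3 h for Trim65 (difference -0.74), Trim41 (-0.63), Trim62 (-0.41) and Trim8 (-0.39). Of these, Trim62 passed in neither state alone, and Trim62 and Trim30c did not pass if the errors were correlated at -0.3.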

How the results depend on the processing

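The counts of Trim genes called are given in the order LPS 3 h, unstimulated, difference; as reported they were 27, 16 and 11. A minimum absolute log2 change of 1 left 0, 1 and 0 genes. Testing against changes of up to 0.25 left 7, 3 and 3. An empirical null, with a spread of the statistic of 3.51, 2.81 and 2.28 over all genes, left 1, 2 and 1. That spread includes the called genes, so it is not a measure of noise alone. Errors correlated at 0.3 gave 18 differences. The other alternatives run (a threshold of 0.01, centring, a minimum mean of 50, other adjustment sets, errors correlated at -0.3, the added gene names) gave 20 to 29, 14 to 17 and 9 to 11. Centring on the median of all genes, 0.03 in both states, took 4 single calls away (Trim65 unstimulated, and Trim2, Trim27 and Trim30b at LPS 3 h) and added Trim28 unstimulated and Trim62 at LPS 3 h. No called value changed sign under any alternative run, but none of these runs could have reversed one. Centring shifted the values by 0.03 or less, the empirical null shifted the statistic by up to 0.28, and the others left the values unaltered. No paired analysis was possible because the deposited tables hold no values per library, and leaving out a replicate was not run for the same reason. Low counts limit Trim7, Trim46 and Trim66, with means under 50.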

Other observations

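Among the 5 Trim genes under the minimum mean, Trim58 stood at 2.44 on the log2 scale (SE 0.48, adjusted p = 2.12e-06) at LPS 3 h and 0.12 (SE 1.70, adjusted p = 0.968) unstimulated in the authors' deposited table, at a mean normalized count of 7.62. Trim29 had -1.73 (SE 0.77, adjusted p = 0.0508) at LPS 3 h and -0.03 (SE 0.52) unstimulated in the authors' deposited table. The other 3, Trim38, Trim17 and Trim34b, passed in neither state, with SE between 0.49 and 0.73.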
